A study of Caenorhabditis elegans with 6 samples.

Results

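The furrow collagens are the 6 cuticle collagens *dpy-2*, *dpy-3*, *dpy-7*, *dpy-8*, *dpy-9* and *dpy-10* of the nematode *C. elegans*. The members were chosen with earlier results of these data known. They were taken by name, as all probes whose sequence name belongs to 1 of these 6 symbols, and this rule used no measured value. This gave 6 of the 20270 genes with a symbol on the array and 10 of its 43603 probes. All 10 probes lay well above background on all 6 arrays, so that all 6 genes were among the 16060 genes tested. In that count, a sequence name that matched no symbol also stands as a gene.

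Worms of the wild-type N2 (Bristol) strain, hermaphrodites fed UV-irradiated *E. coli* OP50, were treated with pRJ-Fr.5 for 24 h starting at L4, the last larval stage, or were left untreated as control (0 µg/ml). pRJ-Fr.5 is a fraction of royal jelly, the secretion that feeds honeybee larvae, prepared after digestion with a protease. The dose was 25 µg/ml in the methods of the study and 25 mg/ml in the sample labels. Each group had 3 samples of RNA from many pooled whole worms, each on its own single-dye array, and whole-worm RNA cannot tell fewer epidermal cells from less RNA in each. Nothing in the labels says that the 3 samples of a group came from separate cultures, so that the p-values measure the spread between these samples, which may be technical.

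The cuticle is the collagen coat that the epidermis of the worm secretes and replaces at each molt. Its surface is folded into rings, and between the rings run the annular furrows, circular grooves around the body. The furrow collagens line these grooves. Loss of any of the 6 removes the furrows and gives a short, fat animal, the dumpy shape from which the *dpy* genes are named. Worms that lack furrows are also known to turn on osmotic, detoxification and antimicrobial genes in the epidermis.

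Of the 6 furrow collagens, *dpy-8*, *dpy-9* and *dpy-3* fell with pRJ-Fr.5, 2.62-fold, 2.43-fold and 1.49-fold. The other 3, *dpy-2*, *dpy-7* and *dpy-10*, did not pass the test, and none of the 6 rose, at the adjusted threshold or at an unadjusted p under 0.05. The threshold was an adjusted p of 0.05 in limma, which fits a linear model to each gene and steadies its variance with that of all genes, with Benjamini-Hochberg adjustment over all 16060 genes. At this threshold 19.1% of all genes were lower and 10.7% were higher, 29.8% in all, against 3 of the 6 furrow collagens lower and 0 higher. When at least 1.8-fold was required as well, 2 of the 6, *dpy-8* and *dpy-9*, were lower, against 2.09% of all genes. In limma's treat, which tests against a change of 1.8-fold in place of no change, 0 of the 6 and 0 of all genes passed the adjusted threshold, and *dpy-8* and *dpy-9* were 2 of 122 genes with an unadjusted p under 0.05. The median log2 fold change was -0.50 for the 6 furrow collagens and 0.03 for all genes tested.

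**Figure D1:**
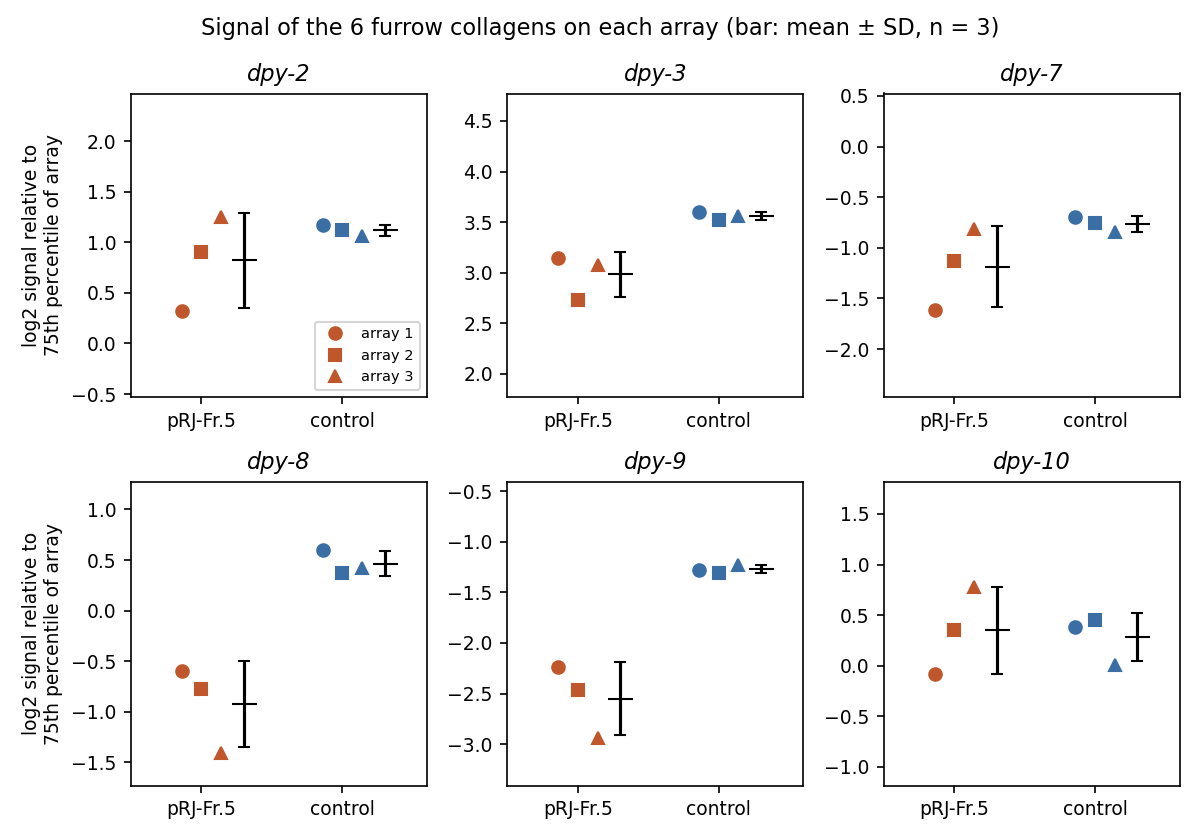
Signal of each furrow collagen on each array, as log2 signal relative to the 75th percentile of the array, with pRJ-Fr.5 arrays on the left of each panel and control arrays on the right; bars give the mean ± SD of 3 arrays, and every panel spans 3 log2 units. The pRJ-Fr.5 arrays lie below all control arrays for *dpy-3*, *dpy-8* and *dpy-9*, and the groups overlap for *dpy-2*, *dpy-7* and *dpy-10*.

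Among the furrow collagens, *dpy-8* (sequence name C31H2.2, chromosome X) had the largest decrease. Values are given as log2 of the signal relative to the 75th percentile of the array, which was set to 0 on every array. The log2 signal of *dpy-8* was -0.59, -0.77 and -1.41 on the pRJ-Fr.5 arrays 1, 2 and 3, against 0.60, 0.37 and 0.42 on the control arrays 1, 2 and 3. All pRJ-Fr.5 arrays were thus below all control arrays, and the third pRJ-Fr.5 array was the lowest. The means were -0.92 ± 0.43 with pRJ-Fr.5 and 0.47 ± 0.12 in control (SD, n = 3 each). The log2 fold change was -1.39 with an SE of 0.21 and an adjusted p of 0.00354 in limma, which is 2.62-fold lower with a 95% interval of 1.87 to 3.68. In the whole table, 39 genes had a more negative log2 fold change. The intensity of its single probe before scaling was 1072, 1000 and 629 units with pRJ-Fr.5, against 2938, 2115 and 2239 units in control, so that the same separation is seen in the intensities as deposited.

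*dpy-9* (T21D12.2, chromosome IV) fell by nearly as much. Its log2 signal, the mean of 2 probes, was -2.24, -2.47 and -2.94 on the pRJ-Fr.5 arrays 1, 2 and 3, against -1.27, -1.31 and -1.23 on the control arrays. The groups did not overlap, and the control arrays lay close together while the pRJ-Fr.5 arrays were spread. The means were -2.55 ± 0.36 with pRJ-Fr.5 and -1.27 ± 0.04 in control (SD, n = 3 each). The log2 fold change was -1.28 (SE 0.17, adjusted p = 0.00255 in limma), or 2.43-fold lower with a 95% interval of 1.83 to 3.22. In the whole table, 60 genes had a more negative value. Its probes gave a log2 fold change of -1.31 for the brighter and -1.25 for the dimmer. The dimmer probe read 123, 107 and 77.9 intensity units with pRJ-Fr.5, against 269, 231 and 252 units in control. On its weakest array its signal after background subtraction was only 1.85 times its local background. Its log2 fold change differed by 0.063 from that of the bright probe.

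*dpy-3* (EGAP7.1, chromosome X), measured by 1 probe, fell less. Its log2 signal was 3.14, 2.73 and 3.08 on the pRJ-Fr.5 arrays 1, 2 and 3, against 3.60, 3.52 and 3.56 on the control arrays. The groups did not overlap, and the gap between the highest pRJ-Fr.5 array and the lowest control array was 0.38 log2 units, against 0.97 for *dpy-8* and 0.93 for *dpy-9*. The means were 2.98 ± 0.22 with pRJ-Fr.5 and 3.56 ± 0.04 in control (SD, n = 3 each). The log2 fold change was -0.58 (SE 0.11, 95% interval -0.85 to -0.30), with an adjusted p of 0.0109 in limma. This call was lost without the filter on dim probes (adjusted p = 0.051 in limma). It was also lost with the test that the study's methods name, after Benjamini-Hochberg adjustment (adjusted p = 0.0523 on the same values). The study names a level of p under 0.05 and no adjustment, which was added here and in later uses of its test. Without adjustment, 3 of the 6 furrow collagens were lower in that test, *dpy-3* among them. Every pRJ-Fr.5 value was under every control value in 3 of the 6 furrow collagens, against 25.2% of all genes.

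*dpy-7* (F46C8.6, chromosome X), whose promoter is widely used to drive transgenes in the epidermis, did not pass the test. Its log2 signal, the mean of 2 probes, was -1.61, -1.13 and -0.82 on the pRJ-Fr.5 arrays 1, 2 and 3, against -0.69, -0.76 and -0.85 on the control arrays. The groups overlapped, since the third pRJ-Fr.5 array was above the third control array. The means were -1.19 ± 0.40 with pRJ-Fr.5 and -0.77 ± 0.08 in control (SD, n = 3 each). The log2 fold change was -0.42 (SE 0.19, 95% interval -0.87 to 0.03), with an adjusted p of 0.135 in limma. Without pRJ-Fr.5 replicate 3 it was -0.60 with an adjusted p of 0.0344 in limma, so that this 1 array decided whether *dpy-7* was called and whether 3 or 4 of the 6 genes were lower.

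*dpy-2* (T14B4.6, chromosome II) had a similar array pattern. Its log2 signal on 1 probe was 0.32, 0.90 and 1.25 on the pRJ-Fr.5 arrays 1, 2 and 3, against 1.17, 1.12 and 1.06 on the control arrays. Thus 2 pRJ-Fr.5 arrays lay below and 1 above all control arrays. The means were 0.82 ± 0.47 with pRJ-Fr.5 and 1.12 ± 0.05 in control (SD, n = 3 each), and the log2 fold change was -0.29 (SE 0.22, 95% interval -0.81 to 0.23, adjusted p = 0.331 in limma).

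*dpy-10* (T14B4.7, chromosome II), the gene commonly edited as a visible marker in genome editing of the worm, showed no separation of the groups. Its log2 signal, the mean of 3 probes, was -0.08, 0.35 and 0.77 on the pRJ-Fr.5 arrays 1, 2 and 3, against 0.39, 0.45 and 0.01 on the control arrays. The highest and the lowest values were both from pRJ-Fr.5 arrays. The means were 0.35 ± 0.43 with pRJ-Fr.5 and 0.28 ± 0.24 in control (SD, n = 3 each), and the log2 fold change was 0.067 (SE 0.23, 95% interval -0.47 to 0.61, adjusted p = 0.836 in limma). The intervals of *dpy-2*, *dpy-7* and *dpy-10* leave room for changes in either direction, so that these 3 genes are not shown to be unchanged.

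**Figure D2:**
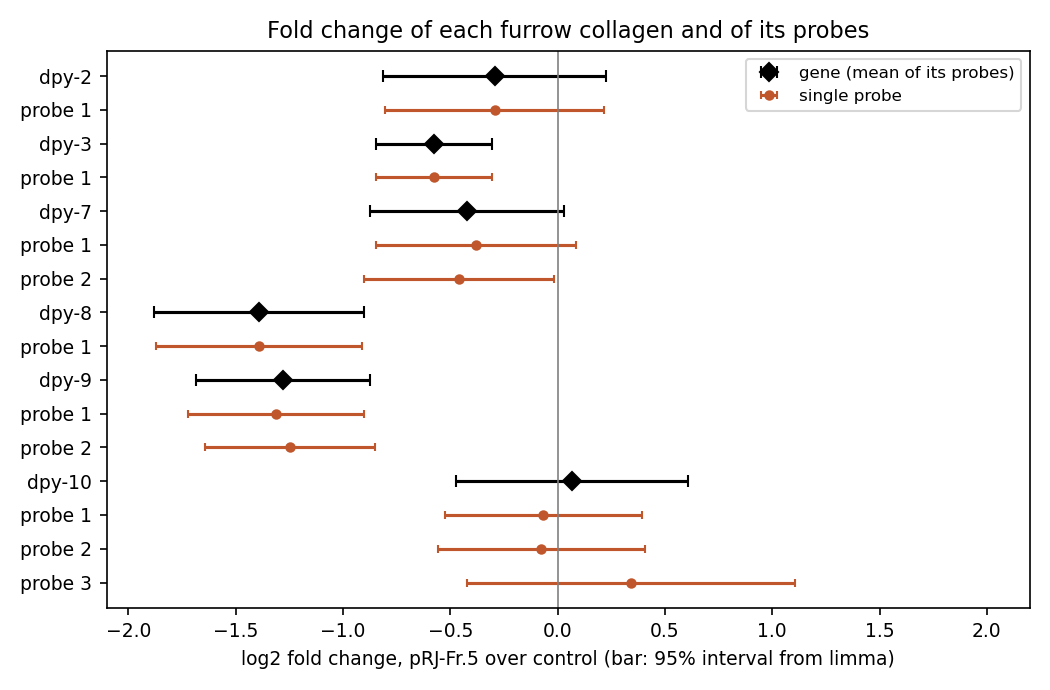
Log2 fold change of pRJ-Fr.5 over control for each furrow collagen (black diamonds, mean over its probes) and for each of its probes (orange circles), with 95% intervals from limma. The intervals of *dpy-3*, *dpy-8* and *dpy-9* lie wholly below 0, and the probes of *dpy-9* stand at -1.31 and -1.25.

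Probe by probe, 4 of the 10 furrow collagen probes passed the adjusted threshold in limma over 27518 probes, all lower, against 16.2% of all probes lower and 8.78% higher (25.0% in all). They were the single probes of *dpy-3* and *dpy-8* and both probes of *dpy-9*. The 2 probes of *dpy-7* gave log2 fold changes of -0.38 and -0.46, which differ by 0.08. The 3 probes of *dpy-10* gave -0.067, -0.076 and 0.34. The third, the dimmest of them, read -2.12, -1.50 and -1.24 on the pRJ-Fr.5 arrays 1, 2 and 3, against -1.76, -1.53 and -2.60 on the control arrays. Its low reading on control array 3 was not shared by the other probes of *dpy-10*, which read 1.29 and 1.33 there and 1.42 to 1.49 on the other control arrays. Values of *dpy-10* that average its 3 probes include this low reading, also on slide 2 and in the differences from other genes. Probes of 1 gene share their RNA and are not replicates.

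The furrow collagens also differed in how the pRJ-Fr.5 arrays were ordered. *dpy-2*, *dpy-7* and *dpy-10* were lowest on array 1 and highest on array 3 of the pRJ-Fr.5 group. *dpy-8* and *dpy-9* were the reverse, highest on array 1 and lowest on array 3, and *dpy-3* was lowest on array 2. Over all genes tested, 22.3% had the first order and 32.3% the second. Of the 3 strut collagens described below, 0 had the first order and 2 the second. Of the 11 other body shape collagens, 2 had the first and 5 the second. Among the 1012 genes with an SD of at least 0.35 log2 units on the pRJ-Fr.5 arrays, a limit set after the values were seen and met by 5 of the 6 furrow collagens, 53.1% had the first order and 21.6% the second, so that the first order was common among genes of such spread. The spread among the pRJ-Fr.5 arrays was large for all 6 genes, with an SD of 0.22 to 0.47 log2 units, whereas the control arrays had an SD of 0.04 to 0.24. The median gene had an SD of 0.10 with pRJ-Fr.5 and 0.08 in control. Such spread was not particular to the furrow collagens. With pRJ-Fr.5 the SD was 0.53, 0.65 and 0.54 for the strut collagens *bli-1*, *bli-2* and *bli-6*. Among the 11 other body shape collagens it ran from 0.16 (*dpy-13*) to 0.58 (*dpy-14*). Only 3.1% of all genes had a larger SD than *dpy-2* among the pRJ-Fr.5 arrays, and 15.2% had a larger one than *dpy-3*, the least variable of the 6. In *dpy-2* the SD was 8.73 times as large with pRJ-Fr.5 as in control.

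**Figure D3:**
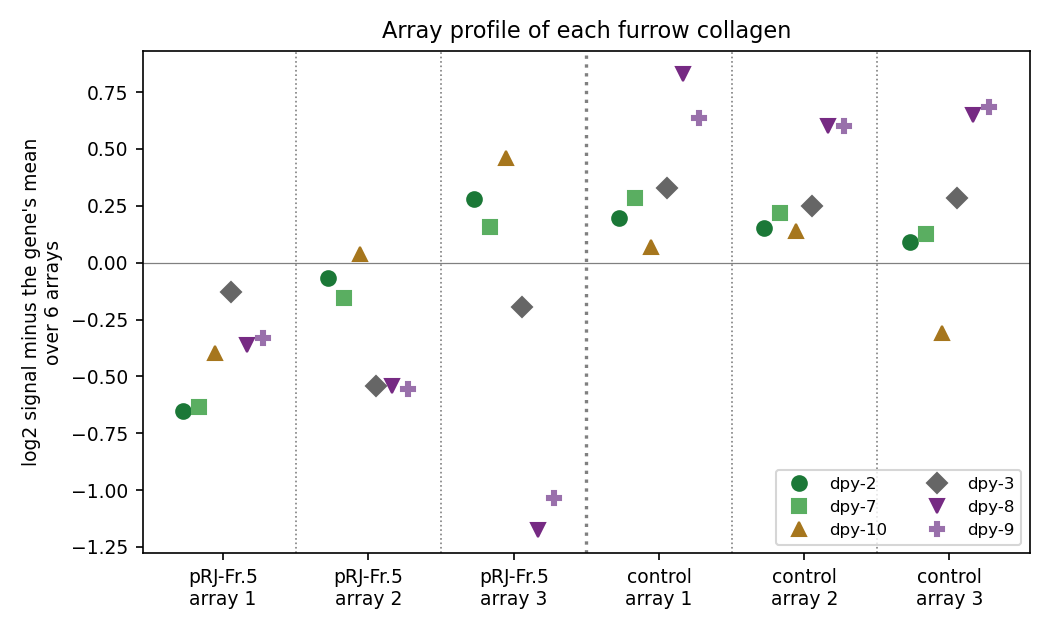
Log2 signal of each furrow collagen on each array minus its own mean over the 6 arrays, with the 3 pRJ-Fr.5 arrays on the left and the 3 control arrays on the right. *dpy-2* and *dpy-7* lie close together on every array, *dpy-8* and *dpy-9* lie close together on every array, and the pairs stand farthest apart on pRJ-Fr.5 array 3.

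After the mean of each gene over the 6 arrays was taken off, the profiles fell nearest to each other in 2 pairs. *dpy-2* and *dpy-7*, on different chromosomes, had a root mean square difference of 0.077 log2 units, the smallest of the 15 pairs. *dpy-8* and *dpy-9*, also on different chromosomes, had 0.101. The largest, 0.888, was between *dpy-8* and *dpy-10*. These differences describe 6 arrays and include the difference between the groups.

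Responses of the furrow collagens were then compared with each other as the difference between 2 genes on the same array, which does not depend on the scaling of the array. The log2 fold change of *dpy-8* was lower than that of *dpy-9* by 0.11 (difference -0.11, SE 0.09, exact two-sided permutation p = 0.5), within the spread of the arrays. Against *dpy-10*, the difference was -1.46 (SE 0.51) for *dpy-8* and -1.35 (SE 0.48) for *dpy-9*, and it was -0.49 (SE 0.11) for *dpy-7*. The log2 fold change of *dpy-3* was above that of *dpy-8* by 0.81 (SE 0.30) and above that of *dpy-9* by 0.70 (SE 0.25). In 11 of the 15 pairs, the differences on the pRJ-Fr.5 arrays did not overlap those on the control arrays. The pairs share genes, so that they are not separate observations. Pairs of other genes were not counted, and the 11 pairs have no share to stand beside. Among single genes tested, the groups did not overlap in 25.2% that were lower and in 24.6% that were higher. With 3 arrays in each group, the smallest p of an exact two-sided permutation test is 0.1, or 0.136 after Benjamini-Hochberg adjustment over the 15 pairs, so that no pair could pass the threshold.

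The genes beside the furrow collagens on the chromosome were examined as well. *dpy-10* and *dpy-2* lie near each other on chromosome II, with 1 protein-coding gene between them in the RefSeq annotation of WBcel235, and *dpy-3*, *dpy-7* and *dpy-8* are all on chromosome X. Of the protein-coding genes next to the 6 furrow collagens, 7 were measured. None passed the test in limma (adjusted p from 0.0566 to 0.979) or in the test of the study's methods after adjustment. At an unadjusted p under 0.05 in limma there were 6, 3 lower and 3 higher. An unadjusted p under 0.05 was common. In limma it was met by at least the 4789 of all 16060 genes that passed the adjusted threshold. In the test of the study's methods it was met by 6365. The full share of all genes in limma was not counted, so that these 6 are not shown to differ from other genes. Next to *dpy-8*, C31H2.3 had a log2 fold change of 0.33 (SE 0.10), opposite in sign to that of *dpy-8*. Next to *dpy-2*, T14B4.5 had -0.59 (SE 0.22).

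The furrow collagens were set beside other collagens and enzymes of the cuticle. Strut collagens build the pillars between the layers of the adult cuticle, and all 3 measured ones, *bli-1*, *bli-2* and *bli-6*, fell, with log2 fold changes of -1.60 (SE 0.25), -1.51 (SE 0.30) and -0.97 (SE 0.27). With the test of the study's methods, 1 of these 3 calls passed after adjustment. Beside this list and the next stand 19.1% of all genes lower and 10.7% higher in limma. Of 11 other collagens that shape the body, 8 fell and 0 rose, with 1 higher at an unadjusted p under 0.05 in limma. The largest changes among them were those of *lon-3*, *rol-8*, *sqt-2* and *sqt-1*, with log2 fold changes of -1.74, -1.59, -1.53 and -1.25. The median was -1.51 for the strut collagens and -1.20 for the other body shape collagens, against -0.50 for the furrow collagens. The 2 members with positive values, *dpy-14* and *dpy-17*, named after their values were seen, had 0.72 (SE 0.28) and 0.61 (SE 0.26) and did not pass the test (adjusted p = 0.0955 and 0.126 in limma). Of the adult collagens, *col-7* fell by 0.23 on the log2 scale (SE 0.07, adjusted p = 0.0468 in limma), whereas *col-19* had -0.06 (SE 0.07, adjusted p = 0.561).

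**Figure D4:**
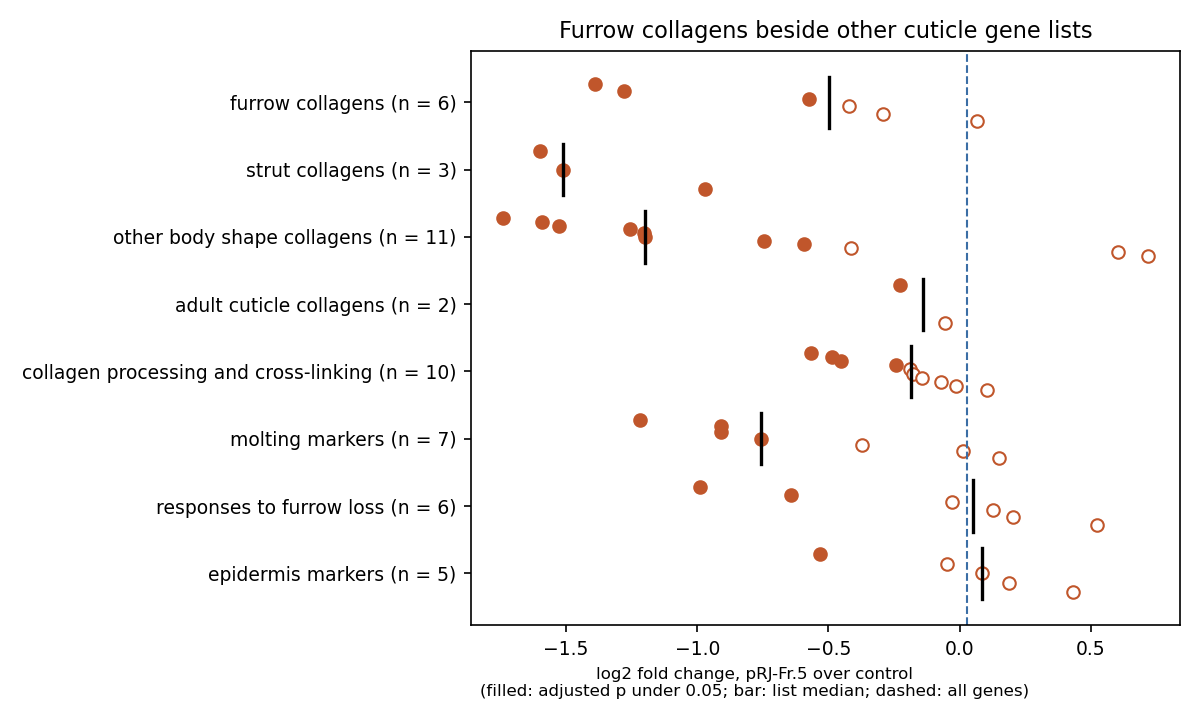
Log2 fold change of pRJ-Fr.5 over control for each measured gene of 8 lists; filled circles passed an adjusted p of 0.05 in limma, black bars give the median of a list and the dashed line the median of all 16060 genes (0.03). The furrow collagens run between -1.39 and 0.07 with 3 filled circles, and all 3 strut collagens are filled and lie at -0.97 or below.

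New collagen chains are hydroxylated, trimmed and cross-linked before they form a cuticle. Of 10 genes for these steps, 4 fell and 0 rose, and 0 were higher at an unadjusted p under 0.05. Beside this list and the molting genes below stand 19.1% of all genes lower and 10.7% higher. The prolyl 4-hydroxylase subunits *phy-2*, *dpy-18* and *pdi-2* had log2 fold changes of -0.56 (SE 0.08), -0.49 (SE 0.07) and -0.24 (SE 0.07). *doxa-1*, a partner of the dual oxidase that cross-links the cuticle, had -0.45 (SE 0.08). The median of this list was -0.18. Among 7 molting genes, 4 fell and 0 rose, likewise with 0 higher at an unadjusted p under 0.05, and their median was -0.76. These were *mlt-10*, *mlt-9* and *mlt-8*, with -1.22, -0.91 and -0.76, and *nas-36*, a protease needed to shed the old cuticle, with -0.91. Of 7 measured regulators of the epidermis and the molting cycle, *blmp-1* and *lin-29*, both transcription factors, fell by 0.49 and 0.46 on the log2 scale. The other 5 did not pass the test, and 2 of them were higher at an unadjusted p under 0.05 in limma. The 2 of 7 that fell stand beside 19.1% of all genes lower and 29.8% called in either direction, a share near that of the whole table. *lin-29* is the regulator that drives the switch of the epidermis from larval to adult.

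Of the genes known to be turned on when furrows are lost, 6 were measured, and 0 rose in limma, at the adjusted threshold or at an unadjusted p under 0.05. Of these, *gpdh-1*, an enzyme of glycerol synthesis, and *hmit-1.1*, a myo-inositol transporter, fell, with log2 fold changes of -0.99 (SE 0.17) and -0.64 (SE 0.11). These 2 of 6 stand beside 19.1% of all genes lower. The antimicrobial peptide genes *nlp-29*, *nlp-31* and *cnc-2* had 0.13 (SE 0.13), 0.20 (SE 0.10) and 0.52 (SE 0.36), and *gcs-1*, an enzyme of glutathione synthesis, had -0.03 (SE 0.08). These 4 did not pass the test, with adjusted p from 0.16 to 0.812 in limma, and were named after their values were seen. Of 5 measured genes of the signaling that leads to these responses, *wnk-1*, a kinase of the osmotic response, rose by 0.25 (SE 0.07, adjusted p = 0.0386 in limma), and the other 4 did not pass the test. The call of *wnk-1* was lost with the test of the study's methods, in which 0 of the 5 passed after adjustment. In limma, this 1 of 5 stood beside 10.7% of all genes higher and 29.8% called in either direction.

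Furrow collagens are made in the epidermis, and markers of the epidermis were therefore examined beside them. Of 5 epidermis markers, *che-14*, which acts in secretion at the apical surface, fell by 0.53 (SE 0.07), and *elt-1*, *elt-3*, *lin-26* and *nhr-25*, transcription factors that define the epidermis, did not pass the test, with log2 fold changes of -0.05, 0.09, 0.19 and 0.43. The level of the list, as the mean log2 signal of its genes on an array, was -1.02 to -0.81 with pRJ-Fr.5 and -0.94 to -0.91 in control. Of 5 markers of seam cells, the lateral cells of the epidermis, *nhr-73* and *grd-10* fell (-1.20 and -0.60), and *ceh-16* and *egl-18* rose (0.75 and 0.47). Of all genes, 19.1% were lower and 10.7% higher, and the 1 of 5 epidermis markers called lower is near that share. For the seam cells the mean level was -2.33 to -2.24 with pRJ-Fr.5 and -2.26 to -2.18 in control. The part of cell composition in the decreases of *dpy-3*, *dpy-8* and *dpy-9* was not tested.

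Markers of other tissues showed that the arrays held whole-worm RNA, as labelled, with all their listed genes well above background. None of 5 body wall muscle, 5 neuron and 5 germline markers passed the test in limma, among them *myo-3*, *unc-119* and *pgl-1*, with log2 fold changes of -0.19, 0.21 and 0.14. At an unadjusted p under 0.05 in limma there were 2, 2 and 1 of them, and at least 29.8% of all genes had such a p. In the test of the study's methods, 1 of each list passed after adjustment, against 3516 of all 16060 genes. Of 7 intestine markers, *pept-1*, *act-5* and *ifb-2* fell by 0.52, 0.42 and 0.22 on the log2 scale, and *elt-7* rose by 0.24. Of 5 pharynx markers, *pha-4* rose by 0.51. These calls stand beside 19.1% of all genes lower and 10.7% higher at the same threshold, 29.8% in all.

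The genes whose array profile lay nearest to the mean profile of the 6 furrow collagens were *cpg-23*, F32D8.3, *lgc-27*, R07E3.6 and *grl-12*. Their root mean square differences from it over the 6 arrays were 0.038, 0.051, 0.053, 0.055 and 0.056 log2 units. Their log2 fold changes were between -0.66 and -0.57, which follows from their choice, since the profile includes the difference between the groups. The mean profile also joins furrow collagens whose pRJ-Fr.5 arrays were ordered in opposite ways. Some cuticle genes were near a single furrow collagen, as was seen after the values were known. *rol-6*, a body shape collagen, was among the 5 genes nearest to *dpy-9* (0.068), and *mlt-11*, a molting gene, among the 5 nearest to *dpy-7* (0.074).

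The 6 arrays lay on 2 slides. Slide 1 held 2 pRJ-Fr.5 and 2 control arrays, and slide 2 held 1 of each, pRJ-Fr.5 array 3 and control array 3. Within a group, array 3 and slide 2 therefore cannot be told apart. The array orders above and the values on slide 2 both use the same pRJ-Fr.5 array 3. Within slide 1, *dpy-8* and *dpy-9* had log2 fold changes of -1.17 and -1.06, both with an adjusted p of 0.0245 in limma, and on slide 2, which allows no test, -1.83 and -1.72. For *dpy-3* these values were -0.62 (adjusted p = 0.0703 in limma) and -0.48. The signs of the other 3 genes differed between the slides. *dpy-2*, *dpy-7* and *dpy-10* had -0.53, -0.65 and -0.28 within slide 1, with adjusted p of 0.15, 0.0825 and 0.274 in limma, and 0.19, 0.031 and 0.77 on slide 2. Control array 3, on slide 2, was noisier than the others, with an SD of its negative control spots of 5.42 intensity units against 1.23 to 1.67, and it alone removed 4705 probes from the test, none of them of a furrow collagen.

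**Figure D5:**
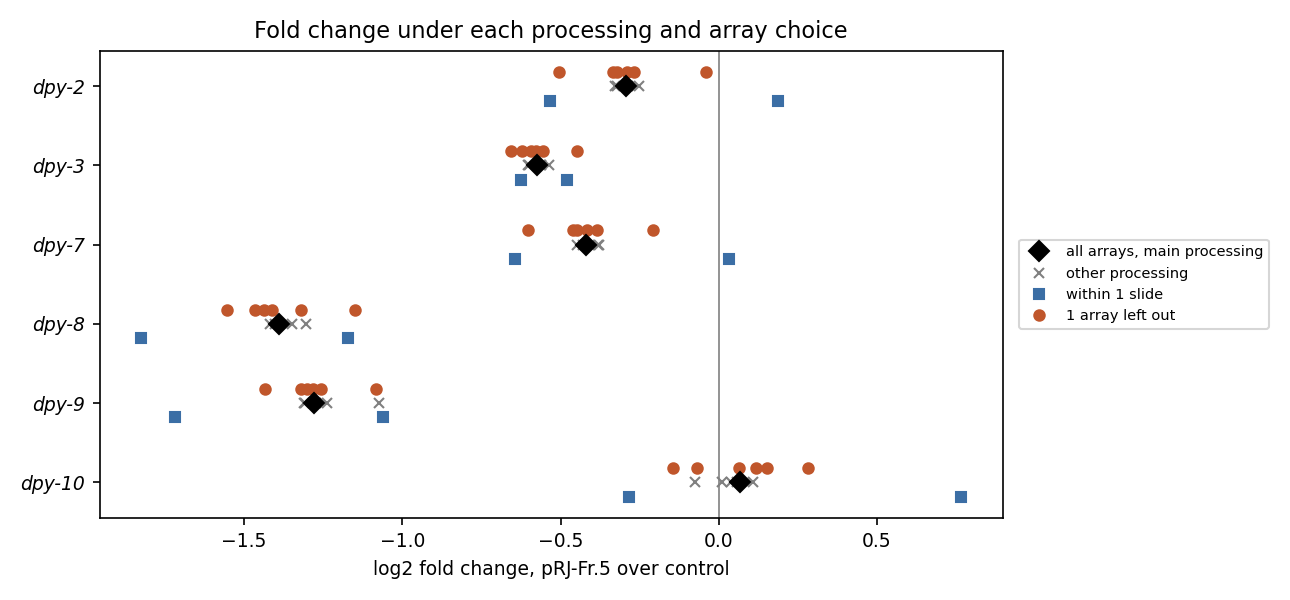
Log2 fold change of pRJ-Fr.5 over control of each furrow collagen from all arrays (black diamonds), under other processing (grey crosses), with 1 array left out (orange circles) and within 1 slide (blue squares). All values of *dpy-8* and *dpy-9* lie at -1.06 or below and all of *dpy-3* between -0.66 and -0.45, whereas those of *dpy-2*, *dpy-7* and *dpy-10* fall on both sides of 0.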

How the data were processed

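RNA of whole N2 worms was measured on 6 single-dye Agilent arrays, 3 with pRJ-Fr.5 and 3 control. The authors deposited the spot intensity from Agilent Feature Extraction 10.7.1.1, with the background subtracted within each array and nothing normalized between arrays. They also deposited a table of processed values, a linear ratio of each probe to the 75th percentile of its array. The intensities used here give the same ratios.

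Control spots and spots marked as outliers were left out, repeated spots were averaged, and values were put on a log2 scale relative to the 75th percentile of all probes on the array. The filter asked for a positive, significant signal well above background on all 6 arrays, and 27518 of 43603 probes passed it. Kept probes of a gene were averaged. Sequence names were matched to symbols in RefSeq (WBcel235) for 80.0% of the probes. The other probes were grouped by their sequence name, which was counted as a gene in the shares of all genes. No coordinates are given, because the arrays use another build. Sequences were not analysed here.

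The comparison of the groups used lmFit and eBayes of limma 3.58.1 (R 4.3.3) without a block, with Benjamini-Hochberg adjustment over all genes or probes, and the test was checked on simulated data. 1.8-fold is the size threshold of the study's methods. The number of arrays limits the precision. Named genes were the 6 furrow collagens, up to 4 genes past the threshold in each other list with the largest change, defining members of lists without any, and the 5 genes nearest to the mean profile of the 6. Members and lists were chosen with earlier results of these data known. Alternatives were the normexp background correction (offset 50), the methods' t-test, quantile normalization, shifts to the median and to the 75th percentile of kept probes, no or a looser filter on dim probes, the deposited table, the replicate number or the slide as a block, values within slides, each array left out, limma's treat against 1.8-fold and the highest-signal probe of a gene.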

Additional observations from a re-analysis of the deposited data

How the results depend on the processing

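The 6 furrow collagens were recomputed under 19 alternatives each, 114 in all, and in 101 of them the sign and the call stayed as they were or, where no test was possible, the value moved by less than 1 SD. *dpy-8* and *dpy-9* passed the adjusted threshold in limma or the methods' t-test in all 18 alternatives with a test, with adjusted p of 0.00222 to 0.0342 and 0.00197 to 0.0277, and on slide 2, with 1 array a group and no test, their log2 fold changes were -1.83 and -1.72. *dpy-3* kept its direction, but with a log2 fold change of -0.58 its adjusted p was 0.0523 with the methods' t-test and 0.051 without the filter on dim probes, and within slide 1 it was -0.62 with 0.0703. *dpy-10* turned negative within slide 1 (-0.28) and with its highest-signal probe (-0.076), and was 0.77 on slide 2, where *dpy-2* was 0.19 and *dpy-7* 0.031. The cause was not tested. With 1 array left out, log2 fold changes were -1.56 to -1.15 for *dpy-8*, -1.44 to -1.08 for *dpy-9*, -0.66 to -0.45 for *dpy-3*, -0.60 to -0.21 for *dpy-7*, -0.51 to -0.04 for *dpy-2* and -0.15 to 0.28 for *dpy-10*, which was negative without control replicate 3 (-0.07) or pRJ-Fr.5 replicate 3 (-0.15). In limma's treat against 1.8-fold, 0 furrow collagen genes, 0 of their probes and 0 of all genes passed an adjusted p of 0.05, and 2 of these genes, 3 of these probes and 122 of all genes had an unadjusted p under 0.05. Of all genes, 4789 passed in limma, 2676 without the filter on dim probes, and 2750 to 5511 with 1 array left out, with the fewest without pRJ-Fr.5 replicate 2, 3026 without control replicate 2 and 3096 without control replicate 1.

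Arrays with the same replicate number did not deviate together (correlations of -0.22, 0.06 and -0.01 for numbers 1, 2 and 3). With the replicate number as a block, 3 furrow collagen genes and 4 of their probes were still lower, with -1.39 for *dpy-8*, -1.28 for *dpy-9* and -0.58 for *dpy-3*, and 3199 of all genes passed the threshold.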
